A study of Mus musculus with 2 samples.

Results

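The 10 genes described here encode stathmins (Stmn1, Stmn2, Stmn3 and Stmn4), the growth-associated membrane proteins Gap43 and Basp1, and collapsin response mediator proteins, CRMPs (Crmp1, Dpysl2, Dpysl3 and Dpysl5). They were chosen by symbol and are 10 of 43346 genes in the deposited gene tables, with 37 of the deposited transcripts. The tissue was embryonic day 18 central nervous system of C57BL/6J mice, taken from littermates of both sexes, and the labels name no treatment or engineered allele. The 2 libraries, biological replicates 1 and 2, form 1 group, so levels, transcript use and library differences can be described but no conditions compared. The labels do not say how many embryos each library pooled or which regions were taken, and a spread over them may be partly technical. A total of 93979836 fragments fell on genes in replicate 1 and 137012773 in replicate 2, of which 1032878 and 1399865 fell on the 10 genes.

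Stathmins bind tubulin dimers and lower microtubule assembly until they are phosphorylated. Stmn1 is cytosolic and is made in dividing cells as well as in neurons, while the neuronal Stmn2, Stmn3 and Stmn4 carry an added N-terminal stretch whose palmitoylated cysteines attach them to membranes. Gap43 and Basp1 lie on the inner face of the growth cone membrane through lipid anchors, bind calmodulin and are phosphorylated by protein kinase C. CRMPs bind tubulin and act in growth cone collapse below semaphorin 3A receptors, and several of their genes have alternative first exons that give the protein a long or a short N terminus.

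The starts of the coding sequences of the stathmins, Gap43 and Basp1 are shown because they hold the membrane anchors in which the genes differ. They were read 5′ to 3′ from the GENCODE M21 transcripts on GRCm38, and capitals mark cysteine codons in frame or, in Basp1, the codon of the glycine that receives a myristoyl group.
Stmn1: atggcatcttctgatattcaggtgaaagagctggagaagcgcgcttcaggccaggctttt
Stmn2: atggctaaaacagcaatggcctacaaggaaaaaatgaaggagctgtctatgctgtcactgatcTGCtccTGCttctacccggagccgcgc
Stmn3: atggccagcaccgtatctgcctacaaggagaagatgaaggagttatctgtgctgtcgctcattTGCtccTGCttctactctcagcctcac
Stmn4: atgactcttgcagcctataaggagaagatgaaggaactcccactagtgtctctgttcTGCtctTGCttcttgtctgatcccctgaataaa
Gap43: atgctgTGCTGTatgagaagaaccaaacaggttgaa
Basp1: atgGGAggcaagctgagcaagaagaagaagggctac

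Stmn2 and Stmn3 hold cysteine codons at positions 22 and 24, and Stmn4 at positions 20 and 22, counted from the start codon. The first 20 codons of Stmn1 hold none, and Gap43 holds its pair at positions 3 and 4. The stathmin coding sequences run from 149 codons in Stmn1 to 189 in Stmn4-201 and are 72.3% to 76.5% identical in pairs over their aligned bases. The CRMP genes range from 70.4% between Dpysl3 and Dpysl5 to 77.3% between Dpysl2 and Dpysl3. Gap43 and Basp1, with 227 and 226 codons, are 71.1% identical over 582 aligned bases, fewer than either coding sequence holds. No unrelated genes were aligned for comparison, so this value does not show that Gap43 and Basp1 are related in sequence.

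All 10 genes were detected at 1 TPM (the deposited level, corrected for length and depth) or more in both libraries, against 34.2% of all genes, and at 5 TPM or more, against 26.4%. All 10 also stood at 100 TPM or more in both, a level reached by 3.46% of all genes. Together they made up 0.956% of the TPM of replicate 1 and 0.865% of replicate 2. The stathmins held 52.4% and 53.8% of that sum, the CRMP genes 24.6% and 23.2%, and Gap43 with Basp1 23.0% in each library.

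**Figure D1:**
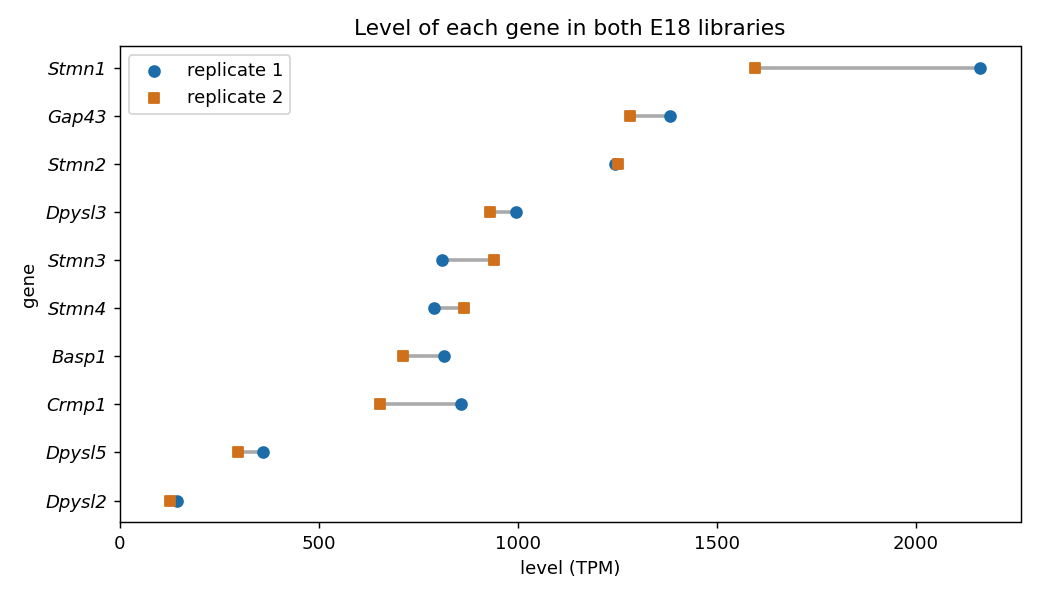
Level of each gene in TPM (x axis) in replicate 1 (circles) and replicate 2 (squares), ordered by the mean; a grey line joins the libraries. Stmn1 lies highest in both libraries and Dpysl2 lowest, and the ranges of neighbours from Dpysl3 to Crmp1 overlap.

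Stmn1 (ENSMUSG00000028832, GRCm38 chromosome 4, 134468320 to 134473843, plus strand) reached 2161 TPM in the first library and 1595 in the second. Its mean of 1878 ± 400 TPM (SD, n = 2, as throughout) ranked 32nd of the nuclear genes and had the widest SD of the 10 genes. Stmn2 (ENSMUSG00000027500, chromosome 3, 8509360 to 8561606, plus strand), a neuronal stathmin transported into axons, was at 1245 and 1252 TPM. Its libraries differed by 0.401% of the mean as an SD, the smallest of the 10 genes by TPM but not by the older-build values given below. Stmn3 (ENSMUSG00000027581, chromosome 2, 181306459 to 181314500, minus strand), another membrane-attached stathmin, was at 809 and 940 TPM. Stmn4 (ENSMUSG00000022044, chromosome 14, 66344296 to 66361680, plus strand) was at 790 and 865 TPM. The highest stathmin mean was 2.27 times the lowest. By TPM Stmn3 was 1.16 times higher in replicate 2 and Stmn4 1.09 times, while Stmn1 was lower there. The coding transcript Stmn4-201 was also lower there, at 481 and 447 TPM. Stmn2 was nearly level at 1.01 times, as was Stmn4 in the count ratios given below.

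Gap43 (ENSMUSG00000047261, chromosome 16, 42248442 to 42340651, minus strand), a substrate of protein kinase C in growing axons, was at 1381 and 1282 TPM. Basp1 (ENSMUSG00000045763, chromosome 15, 25363277 to 25413764, minus strand), its functional relative, was at 815 and 710 TPM. Gap43 lay above Basp1 in both libraries, at 1.75 times its mean.

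The CRMP genes covered a wider range than the stathmins, with 7.15-fold between the highest and the lowest mean. Dpysl3 (ENSMUSG00000024501, chromosome 18, 43320984 to 43438286, minus strand), which encodes CRMP4, was at 996 and 930 TPM. Crmp1 (ENSMUSG00000029121, chromosome 5, 37241940 to 37292133, plus strand) was at 857 and 653 TPM, with replicate 1 the higher. Dpysl5 (ENSMUSG00000029168, chromosome 5, 30711564 to 30799375, plus strand), which encodes CRMP5, was at 359 and 297 TPM. Dpysl2 (ENSMUSG00000022048, chromosome 14, 66802864 to 66868688, minus strand), which encodes CRMP2, was at 143 and 126 TPM and ranked 1041st of the nuclear genes.

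By mean TPM the order was Stmn1, Gap43, Stmn2, Dpysl3, Stmn3, Stmn4, Basp1, Crmp1, Dpysl5 and Dpysl2. Of the 9 neighbouring pairs in this order, 5 had library ranges that did not overlap, among them Crmp1 over Dpysl5 (2.30-fold) and Dpysl5 over Dpysl2 (2.44-fold). Gap43 over Stmn2 was apart by only 1.07-fold. The ranges of Dpysl3 and Stmn3, of Stmn3 and Stmn4, of Stmn4 and Basp1 and of Basp1 and Crmp1 overlapped. Within this stretch Dpysl3 still lay wholly above Stmn4, Basp1 and Crmp1, and Stmn3 was above Stmn4 in both libraries. No test of the order was made with 2 libraries.

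Between the libraries none of the 10 genes differed by 2-fold or more, against 3.58% of the 18677 genes compared and 0.2% of those at 100 TPM or more. By direction, 0.937% of all genes compared were 2-fold or more lower in replicate 2 and 2.64% higher. None of the 10 reached 1.5-fold either, against 9.04% of all genes, 2.73% of them lower and 6.31% higher. These ratios are replicate 2 over replicate 1 of CPM (fragment counts per library size) scaled by TMM, with a single library on each side, so they have no test. The median log2 ratio of the 10 genes was -0.14, with -0.43 the lowest and 0.23 the highest, beside a median of 0.00 over all genes compared and -0.03 over the 1501 genes at 100 TPM or more in both libraries. Among the 10 genes 7 were lower in replicate 2 by any amount, against 49.5% of all genes compared and 60.4% of those 1501 genes.

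Stmn1 had 1190 scaled CPM in replicate 1 and 885 in replicate 2, a log2 ratio of -0.43. Crmp1 had 1520 and 1166 scaled CPM, a log2 ratio of -0.38. These were the 2 genes of the 10 whose log2 ratio was beyond 0.32 in size in either direction, against 19.9% of all genes compared. Both were lower in replicate 2, where 7.54% of all genes and 2.13% of those at 100 TPM or more passed. None of the 10 was higher by as much, against 12.3% and 1.47%. Dpysl5 followed at a log2 ratio of -0.27, Basp1 at -0.19 and Dpysl2 at -0.18. Gap43 and Dpysl3 were at -0.10 and -0.09. Stmn2 and Stmn4 were at 0.02 and 0.01, and Stmn3 was the highest, at 488 and 571 scaled CPM and a log2 ratio of 0.23.

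**Figure D2:**
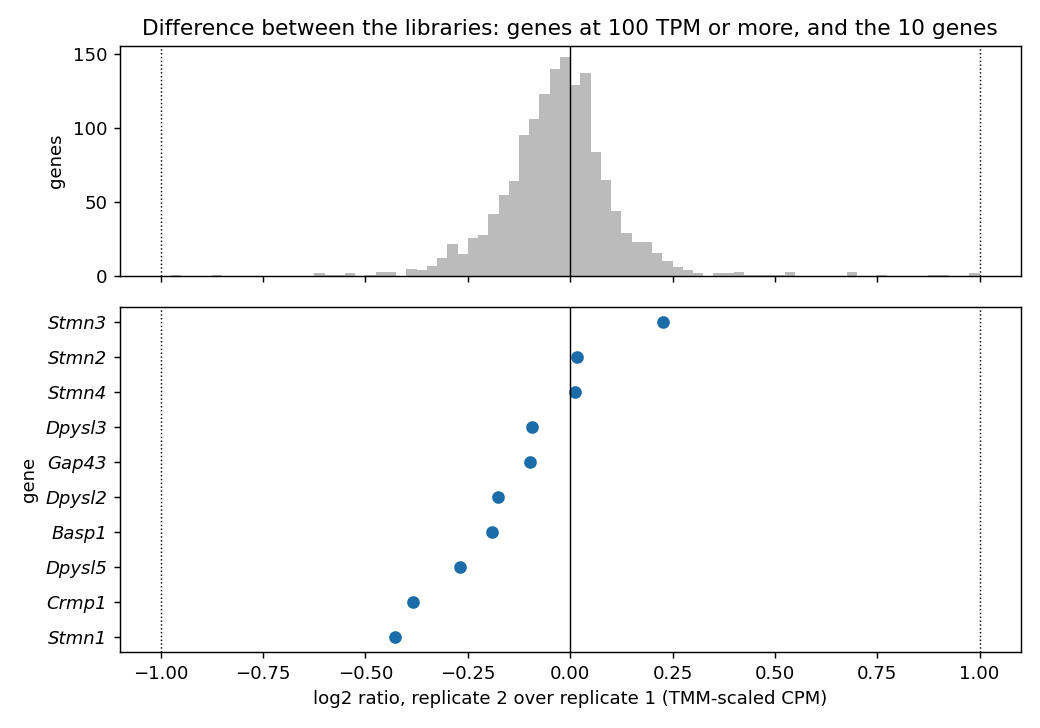
Log2 ratio of replicate 2 over replicate 1 (x axis, TMM-scaled CPM) as a histogram of the 1501 genes at 100 TPM or more, with values beyond the axis in the end bins, and as a point for each of the 10 genes below; dotted lines mark 2-fold. The points run from Stmn1 at -0.43 to Stmn3 at 0.23, and 7 of 10 lie below 0.

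The libraries also differed in markers of tissue and region, and in bulk RNA fewer cells of a type cannot be told apart from less RNA per cell. All 8 skeletal muscle markers were higher in replicate 2, their summed level being 15.5 TPM in replicate 1 and 576 in replicate 2. Summed sensory ganglion markers stood at 12.7 and 60 TPM with 7 of 7 higher in replicate 2, and choroid plexus markers at 452 and 1434 TPM with 5 of 6 higher. All 8 telencephalon markers were lower in replicate 2, at a summed 572 and 430 TPM. Markers of young neurons summed to 4760 and 4240 TPM with 6 of 8 lower in replicate 2, those of cycling cells to 256 and 271 TPM with 8 of 8 higher, and those of radial glia to 2011 and 2208 TPM with 5 of 7 higher. Markers of cartilage and bone summed to 10.3 and 54.8 TPM (6 of 6 compared higher), of meninges and fibroblasts to 570 and 943 TPM (4 of 7), of astrocytes to 96.0 and 113 TPM (6 of 6) and of the oligodendrocyte lineage to 187 and 205 TPM (4 of 7), while blood markers summed to 767 and 534 TPM (0 of 3 compared higher). No marker of these 12 lists was at 0 in both libraries. The part of these differences in the ratios of the 10 genes was not tested.

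The 37 transcripts were divided unevenly among the genes, with 9 for Stmn4 and 1 each for Stmn3, Basp1 and Dpysl2. In 6 of the 10 genes 1 transcript held 90% or more of the gene's TPM in both libraries. These were Stmn3, Basp1 and Dpysl2 with the only transcript of each among the 37, Gap43-201 at 99.7% and 99.8%, Stmn1-201 at 97.9% and 97.8%, and Stmn2-201 at 96.8% and 96.9%. A gene with a single transcript is at 100% by definition. The share of all genes that pass was not counted, so the 6 cannot be called many or few. By deposited RPKM (a level per length and depth) on the older build mm9, Stmn1-201, Stmn2-201 and Stmn3-201 were below 90%. Their shares in the mm9 replicates were 71.6% and 61.7%, 88.7% and 87.3%, and 83.2% and 69.6%. Stmn3 has a second transcript there, while Gap43-201 held 99.9% and Basp1 and Dpysl2 had 1 transcript each. Dpysl5-203 was at 90.6% and 88.8%. Stmn4, Crmp1 and Dpysl3 each had at least 2 transcripts at 10% or more in both libraries.

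Junction reads, deposited on the older build mm9 for 2 replicates whose numbers are not tied to the libraries above, give a direct view of splice choices. A choice whose lesser option took 5% or more of the reads at a splice site, in both mm9 replicates, was found in 3 of the 10 genes (Stmn4, Crmp1 and Dpysl2). How many of all genes have such a choice was not counted, so the 3 cannot be called many or few. Intervals are exact binomial (Clopper-Pearson) 95% intervals and cover counting error only, since reads are not independent molecules.

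In Stmn4 the 81 nt exon (mm9 chromosome 14, 66975106 to 66975186), which is in frame and adds 27 codons, was skipped by 5378 reads in the first mm9 replicate and 7622 in the second. It was joined on its upstream side by 464 and 685 reads and on its downstream side by 923 and 1537, more on the downstream side in both replicates. Inclusion, taken as the mean of both sides, was 11.4% (10.6 to 12.3) and 12.7% (12.03 to 13.4). The exon is shown with 12 bases of each neighbouring exon, the exon itself in capitals, as it stands on GRCm38 chromosome 14 at 66356269 to 66356349, plus strand.
Stmn4, 81 nt exon: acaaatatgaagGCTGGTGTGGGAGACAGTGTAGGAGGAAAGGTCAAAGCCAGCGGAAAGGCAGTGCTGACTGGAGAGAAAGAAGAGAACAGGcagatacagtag

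A 53 nt exon of Stmn4 (mm9 chromosome 14, 66977516 to 66977568) was included in 10.1% (9.00 to 11.3) and 10.9% (9.93 to 11.8) of reads. It holds a stop codon and so replaces the end of the coding sequence, shown here for the transcript that skips it (Stmn4-201) and one that includes it (Stmn4-202), with the differing last coding exon in capitals.
Stmn4-201, end of coding sequence: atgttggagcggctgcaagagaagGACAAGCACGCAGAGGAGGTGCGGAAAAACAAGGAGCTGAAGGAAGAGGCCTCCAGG
Stmn4-202, end of coding sequence: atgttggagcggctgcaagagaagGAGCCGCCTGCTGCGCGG

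Among the deposited transcripts of Stmn4, the protein-coding Stmn4-201, which skips both exons, held 60.9% of TPM in replicate 1 and 51.7% in replicate 2. The retained-intron transcripts Stmn4-205 (405 nt) and Stmn4-208 (685 nt) held 21.6% and 27.9%, and 10.04% and 12.7%. The sources disagreed on Stmn4-205. Shares of RPKM in the mm9 replicates were 0.738% and 0.575% for Stmn4-205, 35.7% and 36.2% for Stmn4-208, and 34.2% and 49.0% for Stmn4-201. By share of fragments rather than TPM, which weights long transcripts more, Stmn4-201 took 79.2% and 73.4%, and Stmn4-205 took 5.20% and 7.44%. The TPM of Stmn4 was 1.09 times higher in replicate 2 while its scaled CPM differed by 1.01-fold. The effective length given for the gene was 847 nt in replicate 1 and 778 nt in replicate 2. In TPM, Stmn4-205 was at 171 and 241 and Stmn4-208 at 79.35 and 109.53, while Stmn4-201 was at 481 and 447.

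In Stmn2 the end of the first exon was joined to the annotated second exon by 20960 and 29433 junction reads. In human neurons that lose the RNA-binding protein TARDBP a cryptic exon is joined at this place. Here 9 unannotated junctions left the same exon end, with 69 reads in all, or 0.137% of the reads leaving it. The most read of them ended 3 bases from the annotated exon start with 27 reads. Another ended inside the first intron, at mm9 position 8523969, with 4 and 6 reads. These are mouse and not human data, and the labels name no loss of TARDBP, so the low count is no test of that event. A further junction with both ends moved by 5 or 6 bases held 515 and 805 reads.

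In Crmp1 the 2 annotated first exons both join the same next exon. Crmp1-201, the short form of 572 codons, was supported by 2894 and 3441 reads, and Crmp1-202, the long form of 686 codons, by 1961 and 2709. The long form's first exon thus took 40.4% (39.0 to 41.8) and 44.0% (42.8 to 45.3) of these reads. The deposited TPM gave the long form 29.7% of Crmp1 in replicate 1 and 34.6% in replicate 2. The deposited mm9 RPKM (a level per length and depth) gave transcripts with this first exon 26.1% and 34.8%. A further unannotated upstream exon took 37 and 49 reads, or 0.754% and 0.789%. The last coding bases of each first exon are shown in lower case, followed in capitals by the start of the shared exon, from transcripts on GRCm38 chromosome 5, plus strand; for the short form the lower-case part is its whole coding first exon.
Crmp1-201: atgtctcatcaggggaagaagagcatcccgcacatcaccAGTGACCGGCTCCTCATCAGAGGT
Crmp1-202: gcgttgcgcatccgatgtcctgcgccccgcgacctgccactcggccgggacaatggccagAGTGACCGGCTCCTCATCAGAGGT

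The sequences upstream of these first exons are shown because both were in use. They come from the RefSeq promoter table on GRCm38.p6, which matched 4 of the 10 genes, and CpG dinucleotides are in capitals. The window of the long form is trimmed where an annotated Crmp1 transcript starts.
Long form, chr5:37241808-37241939, plus strand: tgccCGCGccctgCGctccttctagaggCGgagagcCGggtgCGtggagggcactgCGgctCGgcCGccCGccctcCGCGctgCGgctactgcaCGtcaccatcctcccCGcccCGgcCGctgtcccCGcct
Short form, chr5:37245514-37245763, plus strand: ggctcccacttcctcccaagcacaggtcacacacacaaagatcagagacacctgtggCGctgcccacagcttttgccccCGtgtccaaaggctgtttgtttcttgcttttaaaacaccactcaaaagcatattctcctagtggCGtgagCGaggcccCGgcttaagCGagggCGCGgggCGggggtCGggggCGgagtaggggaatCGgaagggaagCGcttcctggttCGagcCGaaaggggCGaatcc

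Over the full, untrimmed 250 bases the long form's window was 75.6% G and C, with an observed-over-expected CpG ratio of 0.886. The short form's was 59.6% with a ratio of 0.722. The long form's full window runs to 37242057, past the annotated gene start at 37241940. Its values are thus not those of the 132 bases shown. A ratio of 0.6 or more was present in 34.0% of the 32851 windows in the table. The letters TATAAA were on neither strand of either window, and 12.4% of all windows held them on either strand.

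In Dpysl2 the annotation used for the deposited tables has a single transcript. The junction reads entering its second exon came from the annotated first exon (520 and 579 reads) and from an unannotated exon end 41.8 kb upstream of it (129 and 153 reads, mm9 chromosome 14, intron 67484008 to 67529278, minus strand). The upstream option took 19.9% (16.9 to 23.2) and 20.9% (18.0 to 24.0) of reads from these 2 exons. No annotated gene on that strand covers the upstream exon end. No Dpysl2 or Crmp1 transcript in GENCODE M21 has an intron of the length of these unannotated junctions.

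In Dpysl3 the sources disagreed. Junction reads joined the first exon of Dpysl3-201, the short form of 570 codons, to the next exon 7449 and 9842 times, and the first exon of Dpysl3-204, the long form of 683 codons, 42 and 79 times. The long form's share by these reads was 0.561% (0.404 to 0.757) and 0.796% (0.631 to 0.991). The deposited TPM gave Dpysl3-204 65.5% of the gene in replicate 1 and 65.8% in replicate 2, and Dpysl3-201 33.3% and 32.5%. By share of fragments Dpysl3-204 took 84.4% and 84.6%, and Dpysl3-201 15.4% and 15.1%. The deposited mm9 RPKM gave Dpysl3-204 99.9% and 99.8%. The annotated transcripts also differ at the other end, where the last exon is 3442 nt long in Dpysl3-204 and 133 nt in Dpysl3-201, and the part of that difference in the deposited shares was not tested. No read joined the first exon of Dpysl3-202, which allows a share of up to 0.0495% and 0.0375% by the interval's upper bound.

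In Dpysl5 the alternative end of the first exon used by Dpysl5-201 was joined by 3 of 2195 and 13 of 2674 reads. Its share by these reads was 0.137% (0.0282 to 0.399) and 0.486% (0.259 to 0.830). Dpysl5-201 held 3.04% and 5.14% of the gene's TPM, but 52.0% and 58.1% of its mm9 RPKM.

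**Figure D3:**
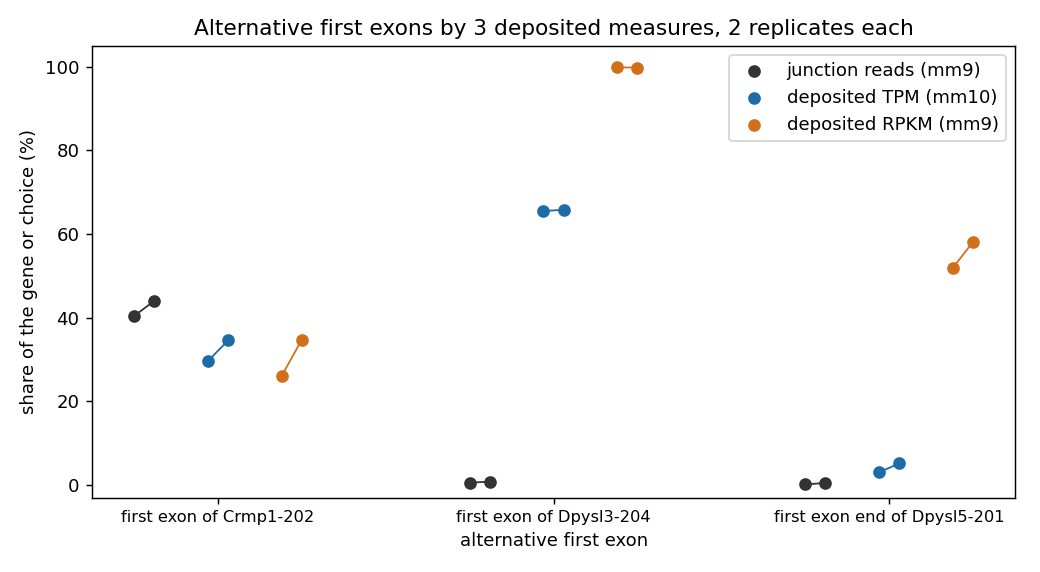
Share (y axis, percent) of an alternative first exon in Crmp1, Dpysl3 and Dpysl5 by junction reads on mm9 (black), deposited TPM on mm10 (blue) and deposited RPKM on mm9 (orange), with a point for each of 2 replicates; junction shares are of the reads from 2 competing first exons, the others of the whole gene. The Dpysl3-204 exon is below 1% by junction reads, near 66% by TPM and above 99% by RPKM.

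Stmn1 stood apart from the other 9 genes in the mm9 files. On mm9 it had 104 and 93.2 RPKM, below Stmn2 at 205 and 161 RPKM and Gap43 at 161 and 158 RPKM, although it led the TPM order. Its mean RPKM was 0.0526 of its mean TPM, while this ratio lay between 0.0978 and 0.147 in the other 9 genes and had a median of 0.110 over 1453 genes at 100 TPM or more. A lower ratio was found in 10.7% of those genes. Its most read intron had 1.37 reads for each TPM, against 26.1 to 68.0 in the other 9 genes and a median of 28.4 over 1414 genes at that level with an annotated intron, of which 2.40% were lower.

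The 4 introns of Stmn1 were crossed by 1187, 60, 338 and 532 reads in the first mm9 replicate and by 1160, 228, 1047 and 2041 in the second, in 5′ to 3′ order. Scaled to all junction reads, the second replicate was 0.680 times the first at the first intron and 2.16 to 2.67 times at the other 3. So 3 of 4 Stmn1 introns differed by 2-fold or more between the mm9 replicates, against 0 of 67 introns in the other 9 genes and 1.54% of 112364 annotated junctions with 100 or more reads. The mm9 RPKM of Stmn1 was instead 1.12 times higher in the first replicate.

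Stmn1 was also the only one of the 10 genes with a close copy among the other M21 transcripts at 90% identity over 150 bases or more. The processed pseudogene Gm11223 (GRCm38 chromosome 4, 69925630 to 69926079) is 99.8% identical over 450 bases to positions 171 to 620 of Stmn1-201. The splice junctions 2, 3 and 4 of Stmn1 lie inside this stretch and junction 1 lies outside it. Over both mm9 replicates junction 1, outside the stretch, had 2347 reads. Of those inside it, junction 2 had 288 and junction 4 had 2573. Junction 3, also inside, lay between these with 338 reads in the first mm9 replicate and 1047 in the second. Gm11223 was given 6.25 TPM in replicate 1 and 8.67 in replicate 2, and Stmn1 was the only gene of the 10 whose fragment counts were not whole numbers. Reads can be shared between a gene and such a copy. Gm11223 was given 92.71 and 197.41 fragments, against 109973 and 123294 for Stmn1. The level of Stmn1 is given as uncertain because the mm9 values place it below Stmn2 and Gap43. The part of such copies in the mm9 values was not tested.

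**Figure D4:**
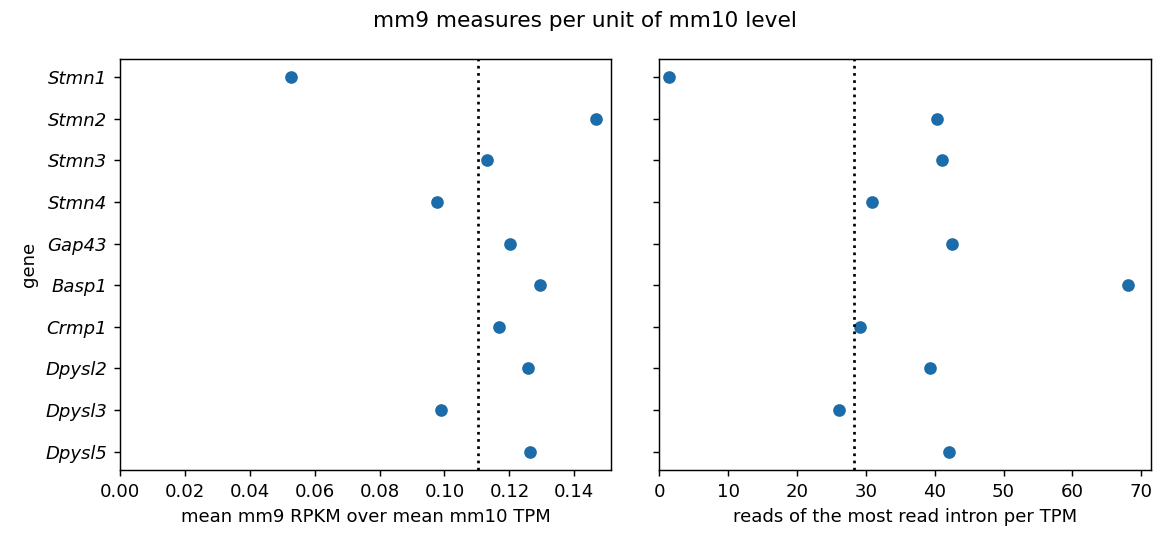
Mean mm9 RPKM over mean mm10 TPM (left) and junction reads of the most read intron per TPM (right) for each of the 10 genes; dotted lines are the medians of genes at 100 TPM or more. Stmn1 is lowest in both panels, at 0.0526 and 1.37, and the next lowest genes are at 0.0978 and 26.1.

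On mm9 the order of the other 9 genes by RPKM was Stmn2, Gap43, Stmn3, Basp1, Dpysl3, Crmp1, Stmn4, Dpysl5 and Dpysl2. The replicate ranges of neighbours overlapped more often than in TPM, with 3 of 9 pairs apart over all 10 genes. Dpysl5 (44.9 and 38.0 RPKM) and Dpysl2 (17.5 and 16.4 RPKM) were the lowest in both tables. Stmn2 differed most of the 10 genes between the mm9 replicates, at 1.27 times higher in the first.

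Junction reads along the genes were steady in some and sloped in others. Summed over the mm9 replicates, Gap43 had 56555 reads over its first intron and 48312 over its last, and the single intron of Basp1 had 51863. Dpysl2 had 4.63 times as many reads over its last intron as over its first, and Crmp1 3.23 times as many. Their first introns exclude the reads of the alternative first exons described above. Stmn4 went the other way, with 0.254 times as many reads over the last intron as over the first, and Dpysl3 was at 0.550. In 2 introns, one of Crmp1 and one of Dpysl5, the reads lay 3 and 2 bases from the annotated ends at an equal intron length, and were taken as the same intron.

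**Figure D5:**
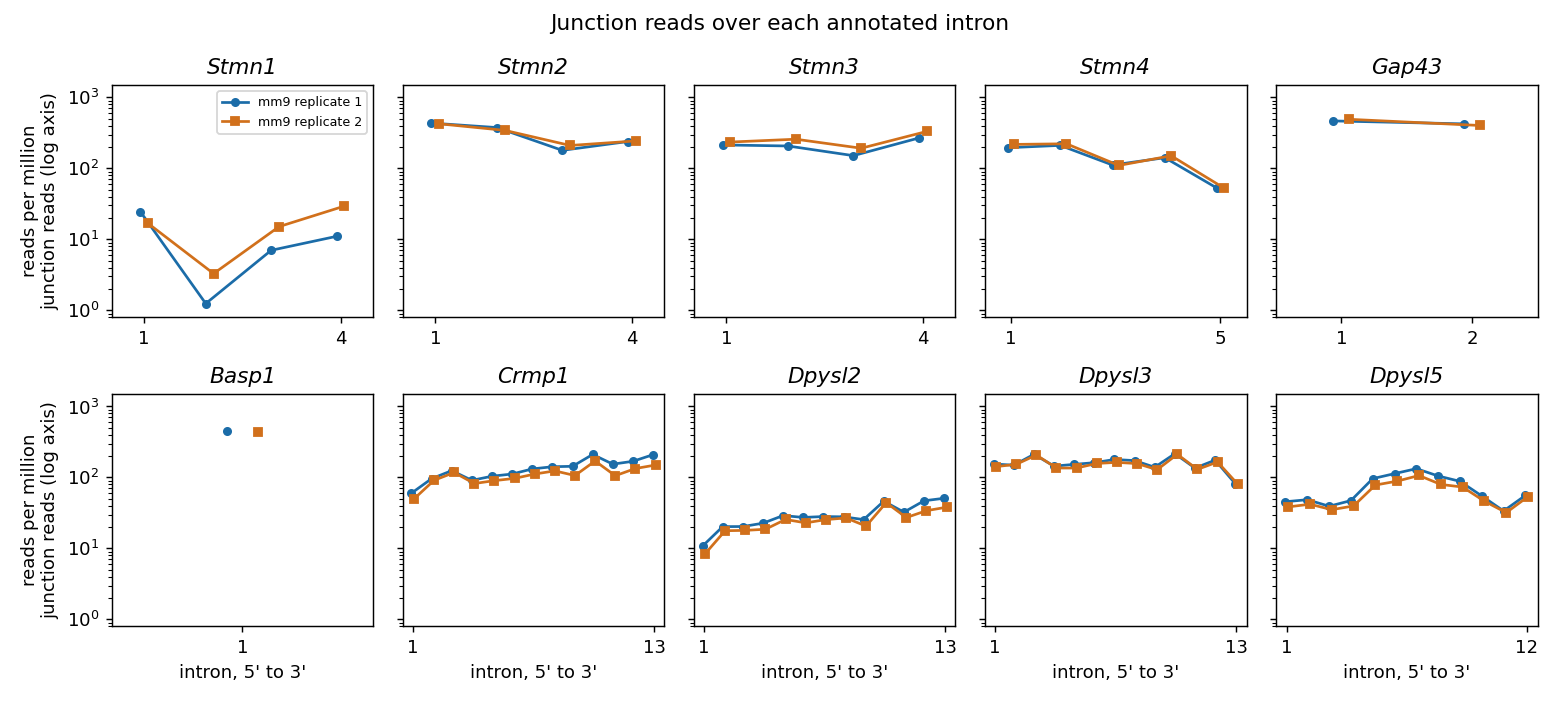
Junction reads scaled to the total of junction reads (y axis, log scale) over each annotated intron of the main transcript, 5′ to 3′ (x axis), for the mm9 replicates 1 (circles) and 2 (squares), which are not tied to the library numbers. The lowest point is the second intron of Stmn1, whose replicates part by 2.16 to 2.67 times at 3 introns, and the last intron lies above the first in Dpysl2 and Crmp1.

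Genes that act with these 10 were nearly all detected. Over 4 lists 81 of 83 different genes reached 1 TPM in both libraries, against 34.2% of all genes, and 2 of the 83 differed by 2-fold or more between the libraries, against 3.58%. Of 28 other growth cone proteins all were detected, at a median of 193 TPM and a median log2 ratio of -0.10, with 20 of the 28 lower in replicate 2, against 49.5% of all genes compared and 60.4% of those at 100 TPM or more. The neuronal tubulin gene Tubb3 was at 2731 and 2430 TPM, the reticulon gene Rtn1 at 1645 and 1296, and Marcksl1, a relative of the protein kinase C substrate Marcks, at 1272 and 1098. Farp2, an exchange factor below plexin receptors, was lowest at 2.58 and 3.28 TPM.

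Of 20 genes of the CRMP pathway, which holds semaphorin 3A receptors and the kinases and partners of CRMPs, all were detected, at a median of 37.7 TPM and a median log2 ratio of -0.07. Klc1, a kinesin light chain, was at 547 and 540 TPM, the Cdk5 activator gene Cdk5r1 at 301 and 240, and the receptor gene Plxna3 at 209 and 194. The kinase gene Fes was lowest, at 2.96 and 3.43 TPM.

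Of 21 genes for stathmin kinases, phosphatases and palmitoyl transferases 20 were detected, at a median of 78.6 TPM and a median log2 ratio of -0.04. The phosphatase subunit gene Ppp1ca was at 280 and 271 TPM, and the kinase genes Camk2b and Mapk3 at 227 and 192 and at 204 and 184. Mapk13, a stress-activated kinase gene, was lowest at 4.31 and 0.95 TPM and was lower in replicate 2 by 4.30-fold in scaled CPM.

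Of 19 genes for partners of Gap43 and Basp1 18 were detected, at a median of 57.3 TPM and a median log2 ratio of -0.04. The calmodulin genes Calm2 (1364 and 1399 TPM) and Calm3 (757 and 762 TPM) were the highest. Wt1, whose product takes Basp1 as a corepressor in other cells, was lowest at 0.56 and 0.09 TPM and was lower in replicate 2 by 4.93-fold in scaled CPM.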

How the data were processed

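Per the labels, libraries were stranded and paired-end with reads of 101 nt, from polyadenylated RNA longer than 200 nt. For each library the authors deposited TPM, FPKM and expected counts of genes and of transcripts on mm10 with the GENCODE M4 annotation, and the percent each transcript takes of its gene, per the file headers and read-me texts. The deposited mm9 tables give RPKM values of 2 replicates for Ensembl release 65 and for Cufflinks models, and junction read counts with an irreproducibility score that the authors deposited per junction. Which aligner and quantifier were run is not given in the sources used here. No coordinates were moved between builds, and mm9 replicate numbers were not matched to libraries.

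Symbols, GRCm38 positions and transcript sequences came from GENCODE M21. Library sizes left out spike-ins and other non-gene entries, which held 3.62% and 4.01% of fragments. Expected counts were rounded, filtered with filterByExpr and scaled by TMM in edgeR 4.0.16, with a prior count of 1 for log2 ratios; DESeq2 1.42.0 size factors served as an alternative. Ratios were checked on simulated counts. A gene with no fragment could be as high as 0.0319 and 0.0219 CPM (3 fragments), for counting error only. A splice choice needed 20 reads in each mm9 replicate and a lesser option at 5% or more. Copies were sought with BLAST 2.17.0, identities with Biopython 1.88, and R 4.3.3, Python 3.11.15, pandas 2.3.3 and SciPy 1.17.1 were used. Named were all 10 genes, their transcripts at 10% or more in both libraries, and of each associated list the 3 highest, the lowest and those past 2-fold, of which 1 is not reported here; the Dpysl3-202 and Dpysl5-201 exons, the 53 nt exon of Stmn4, Stmn4-202 and Gm11223 were added after their values were seen. The genes and lists were chosen with earlier results of these data known.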

Additional observations from a re-analysis of the deposited data

How the results depend on the processing

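No paired analysis was possible because the 2 libraries belong to 1 group. The median level of the 10 genes was 851 TPM, 530 in FPKM, 1014 TPM rescaled over nuclear genes and 1016 CPM without length correction, and it ranged from 836 to 897 TPM when either library was left out. Without length correction the order began with Dpysl3, Stmn2 and Crmp1 with Stmn1 behind Gap43. Over protein-coding transcripts only, Stmn4 came below Basp1 and Crmp1. On mm9 gene values 3 rather than 5 neighbouring pairs were apart. Detection gave 10 of 10 genes at every threshold tried. The number past 2-fold was 0 under 6 other scalings and priors and both other filters, and also past 1.5-fold, and 2 past a log2 ratio of 0.32. The sign of each gene's log2 ratio was the same under all 6 scalings and priors, with Stmn4 between 0.01 and 0.13. The median mm9 value was 96.9 RPKM, but 37.2 over the Cufflinks models that overlapped only that gene, which existed for 9 of 10 genes. Those models held 0.150 and 0.0780 RPKM for Stmn3 and 5.32 and 5.06 for Basp1, far under the gene values, so this median is no level of the genes, and the cause was not tested. Genes of the associated lists past 2-fold were 2, but 1 by the ratio of TPM, where a pseudocount of 1 applies. Counts of genes with 1 dominant transcript (6) and with a splice choice (3) stayed within 1.5 times under the alternatives run for them. Those alternatives did not include the mm9 RPKM shares of transcripts. Few junction reads limit the Stmn1 introns, with 288 at the fewest over both mm9 replicates although Stmn1 led the TPM order. They also limit the Dpysl2 first exons. Having 2 libraries limits every spread.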
